A study of Pardosa pseudoannulata with 6 samples.

Results

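The transcripts described here encode, or carry the protein domains of, the ferritins and metal transporters of the wolf spider Pardosa pseudoannulata, a hunter of rice fields. They were taken from a table of assembled genes by 2 kinds of evidence. Either the Pfam annotation held a ferritin, ZIP, cation efflux, Nramp, Ctr copper transporter, heavy-metal-associated or transferrin domain, or the best protein hit was named as a metallothionein, ferritin, zinc transporter, copper-transporting protein or metal regulatory transcription factor. Of 117 matching genes, 21 were under the level required (at least 0.5 FPKM in at least 3 of 6 libraries) and 3 more were dropped because their best hit was a Drosophila protein. This left 93 genes of 75542 in the table, of which 53182 reached that level.

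Ferritin forms a hollow protein shell that oxidises iron and stores it in a form that does little harm. ZIP proteins move zinc and related metals into the cytosol, cation efflux proteins (ZnT) move zinc out of the cytosol or into vesicles, Nramp carries iron and other divalent metals with protons, and Ctr proteins and copper ATPases carry copper. Cadmium is not a nutrient, but it can enter cells by routes meant for zinc, iron and calcium, and metallothioneins, small proteins rich in cysteine, are the best known cadmium-binding proteins of animals.

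All 6 libraries came from spiders exposed to cadmium and microinjected with double-stranded RNA, the trigger of RNA interference. The injected RNA was a negative control in 3 libraries (dsNC) and targeted F-actin in the other 3 (dsFactin). A comparison of the groups therefore shows differences beside the actin double-stranded RNA under cadmium, and the effect of cadmium itself was not compared here. The material is labelled only as an individual, so a whole animal is possible, and in such a sample fewer cells of a type and less RNA per cell cannot be told apart. Whether replicates were separate animals is not said in the labels, and the p-values reflect only how far these libraries differ from each other, which may be technical.

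Depth recovered from the table was 15.76 to 17.91 M fragments a library (M, 1000000). Among 7 tested actin-named transcripts, cytoplasmic A3a-like actin (Cluster-8110.34823) had the highest dsNC mean, at 4443, 5949 and 5426 FPKM in dsNC and at 1906, 2321 and 3221 FPKM in dsFactin. The actin transcripts did not share a direction. Lower values in all dsFactin libraries than in any dsNC library were also found for Cluster-8110.34480 and Cluster-8110.35523. By contrast, every dsFactin library exceeded every dsNC library for Cluster-8110.34975 (1826 to 2107 against 1666 to 1786 FPKM). The same held for Cluster-8110.34222 (331 to 358 against 295 to 316 FPKM). Groups overlapped for Cluster-8110.34334 and Cluster-8110.4076. Values of the organ marker lists also moved with the groups: summed muscle transcripts (61 genes) ranged from 8326 to 10029 FPKM in dsNC and from 4045 to 5076 FPKM in dsFactin, and hemocyanins (45 genes) from 71800 to 88730 and from 43749 to 53996 FPKM. Summed digestive enzymes (70 genes) ranged from 9352 to 12080 FPKM in dsNC and from 15259 to 16874 FPKM in dsFactin, and vitellogenins (37 genes) from 9960 to 14173 and from 14565 to 25859 FPKM. Summed cuticle proteins (181 genes) ranged from 29572 to 34936 FPKM in dsNC and from 8609 to 29596 FPKM in dsFactin, and silk proteins (38 genes) from 17470 to 21148 and from 18091 to 25882 FPKM, so both of these sums overlapped between groups. A sum follows its most abundant genes: of the 70 digestive genes 38 had a negative and 32 a positive log2 difference, with a median of -0.14. Markers of these 6 lists were kept only if they reached the level required for testing, so none could be at 0 in every library. The part of these marker shifts in the values that follow was not tested.

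Transferrins were named as part of this family of genes, but the domain annotation held none. No gene of the table carried the Pfam transferrin domain, so the 93 genes hold 0 transferrins by that domain, and transcripts whose best hit is named transferrin are described apart. Metallothioneins were also missing from the set, since all 5 genes with that name had a Drosophila best hit. The remaining domains were ZIP (33 genes), Ctr (19), ferritin (13), cation efflux (17), heavy-metal-associated (6) and Nramp (1), and 5 genes entered by name without any of these domains.

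The best hit named a metal-handling protein for 47 of the 93 genes. It named some other protein for 26, and no characterised protein for 20. Annotated domains also differed among these classes: more than 2 distinct domains were listed for 7 of the 47 metal-named genes, for 16 of the 26 with another name and for 12 of the 20 without a name. Up to 17 domains were listed for a single gene of the second class. The results below therefore lead with the 47 metal-named genes.

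The 2 groups were compared over all tested genes with limma on log2(FPKM + 1), with a call at an adjusted p under 0.05. None of the 93 genes passed in either direction, beside 0.496% of all tested genes (0.0771% higher and 0.419% lower in dsFactin), and their lowest adjusted p in limma was 0.0681. At an unadjusted p under 0.05, 9 of the 93 were higher and 11 lower in dsFactin, beside 4.53% and 14.8% of all tested genes. Abundant genes reach that p more often. Of the 93, 56 averaged at least 5 FPKM, a level at which 1538 of 12851 tested genes were higher and 2410 lower. With limma-voom on recovered fragments 3 of the 93 passed, beside 2.26% of all, and without dsFactin replicate 2 also 3, beside 2.44% of all. Among genes averaging 5 FPKM or more, fitted alone, 1 of 56 passed, beside 6.06% of all.

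Group separation had a similar split. All dsFactin libraries lay above all dsNC libraries for 16 of the 93 genes (17.2%; 5.98% of all tested genes), and below for 17 (18.3%; 21.5% of all). At a mean of at least 5 FPKM, which 56 of the 93 had, the shares were 15.6% and 23.5% of all tested genes. Cluster-8110.24790, counted above, and Cluster-8110.2296, counted below, reached 0.5 FPKM only in the group where they are high, so their separation is no support. The median log2 difference was -0.09 over the 93 genes and -0.27 over all tested genes. Rescaling by median ratios gave 0.20 and -0.09, and quantile normalization gave 0.10 and 0.01, so small differences are read beside the scaling. For genes with a mean of at least 5 FPKM, the median of all tested genes went from -0.12 to 0.18 with median ratios, which raised the differences of abundant genes by a like amount.

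The classes of best hit did not share this balance. Of the 47 metal-named genes, 13 lay wholly above in dsFactin (27.7%) and 3 wholly below (6.38%), with a median log2 difference of 0.09. Of the 26 genes named as other proteins, 1 lay above and 12 below (46.2%), with a median of -0.23. The 20 unnamed genes had 2 above and 2 below and a median of -0.17. Cluster-8110.2296 is 1 of the 12, and Cluster-8110.24790 is 1 of the 2 unnamed genes above. With median ratios the 3 medians were 0.35, 0.03 and 0.03, so the medians of the other-named and the unnamed genes changed sign. Genes at higher levels separate more readily: among genes with a mean of at least 5 FPKM, 15.6% of all tested genes lay above and 23.5% below, and 10 of 29 metal-named genes lay above (34.5%) and 1 below (3.45%).

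**Figure D1:**
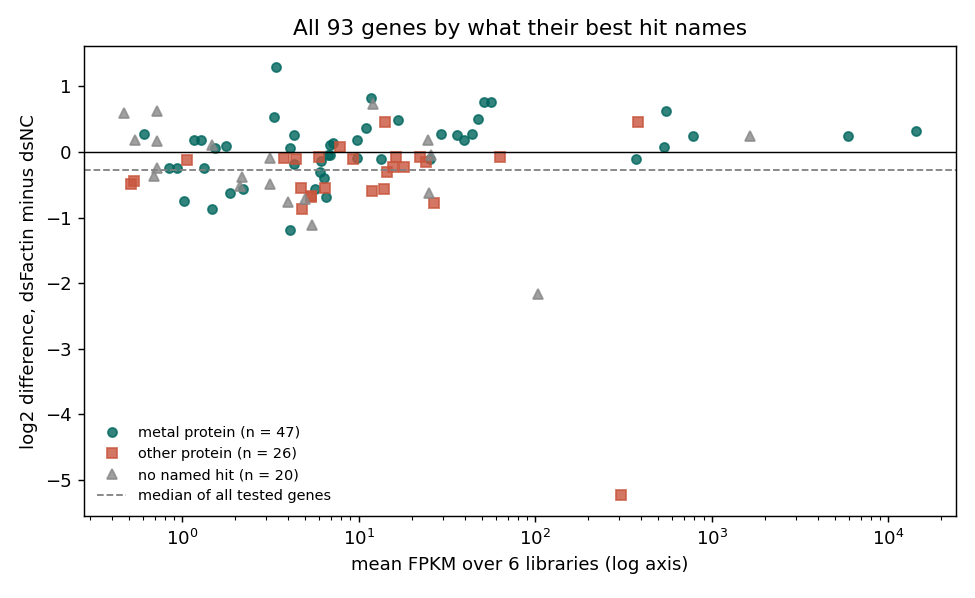
Each point is 1 of the 93 genes, placed by its mean FPKM over 6 libraries (log axis) and its log2 difference on the log2(FPKM + 1) scale, dsFactin minus dsNC, and marked by what its best hit names. The dashed line is the median of all tested genes at -0.27, and the lowest point, at -5.22, has a best hit that is not a metal protein.

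The most abundant metal-named transcripts were ferritins. A soma ferritin (Cluster-8110.35353) stood at 12793, 12119 and 13557 FPKM in dsNC replicates 1 to 3 and at 15568, 16040 and 16090 FPKM in dsFactin replicates 1 to 3. It ranked between 2 and 6 among all genes of a library. All 3 dsFactin libraries were above all 3 dsNC libraries, with a log2 difference of 0.31 ± 0.18 (SE) and an adjusted p of 0.390 in limma. It passed in 1 of the 16 alternatives, limma-voom (adjusted p = 0.0497). This transcript is 495 bases long and held 36945 to 59669 recovered fragments a library, so counting error is small beside the spread between libraries.

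A second ferritin (Cluster-8110.34903, 839 bases), whose other best hit is a ferritin heavy chain A, was at 5498, 5010 and 5915 FPKM in dsNC. In dsFactin it was at 6440, 6330 and 6518 FPKM. The groups again did not overlap. Its log2 difference was 0.24 ± 0.16 (SE, adjusted p = 0.456, limma), not past the threshold.

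The ferritin with the lowest adjusted p was a heavy chain A-like transcript (Cluster-8110.30997), whose other best hit is a ferritin middle subunit. It was at 38.3, 35.6 and 40.2 FPKM in dsNC and at 73.5, 58.7 and 63.2 FPKM in dsFactin. Every dsFactin library was well above every dsNC library, and the mean went from 38.0 ± 2.29 to 65.1 ± 7.55 FPKM (SD, n = 3), a ratio of 1.71. The log2 difference was 0.76 ± 0.13 (SE) with an adjusted p of 0.0681 in limma, ranging from 0.0367 to 0.226 over the alternatives. It was past the threshold in 4 of the 16 alternatives run, which were a fit to genes averaging 5 FPKM or more (0.0367), array weights (0.0446), limma-voom (0.0378) and the fit without dsFactin replicate 2 (0.0488).

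The other ferritin-named transcripts overlapped between groups. A ferritin (Cluster-8110.35891) was at 665, 629 and 859 FPKM in dsNC and at 769, 993 and 777 FPKM in dsFactin. A transcript whose best hits are a venom protein and a ferritin heavy chain A (Cluster-8110.36311) differed by 0.08 ± 0.11 and a soma ferritin-like transcript (Cluster-8110.35392) by -0.11 ± 0.12 on the log2 scale (SE), the last turning to 0.22 after median-ratio rescaling. Thus 5 of 6 ferritin-named transcripts had a positive difference, and 3 (50.0%) lay wholly above, beside 15.6% of all tested genes with a mean of at least 5 FPKM. Here the division of reads among these related transcripts was not given in the sources used here.

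Added together, the 6 ferritin-named transcripts were at 19914, 18686 and 21296 FPKM in dsNC and at 23767, 24361 and 24339 FPKM in dsFactin. Cluster-8110.35353 and Cluster-8110.34903 make up most of this sum, which held 1.77% of all FPKM in dsNC and 2.16% in dsFactin on average. The log2 difference of the sum was 0.28, with an exact two-sided permutation p of 0.1, the smallest that 3 libraries against 3 can give. Rescaled by median ratios it was 0.60, and with quantile normalization 0.32.

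**Figure D2:**
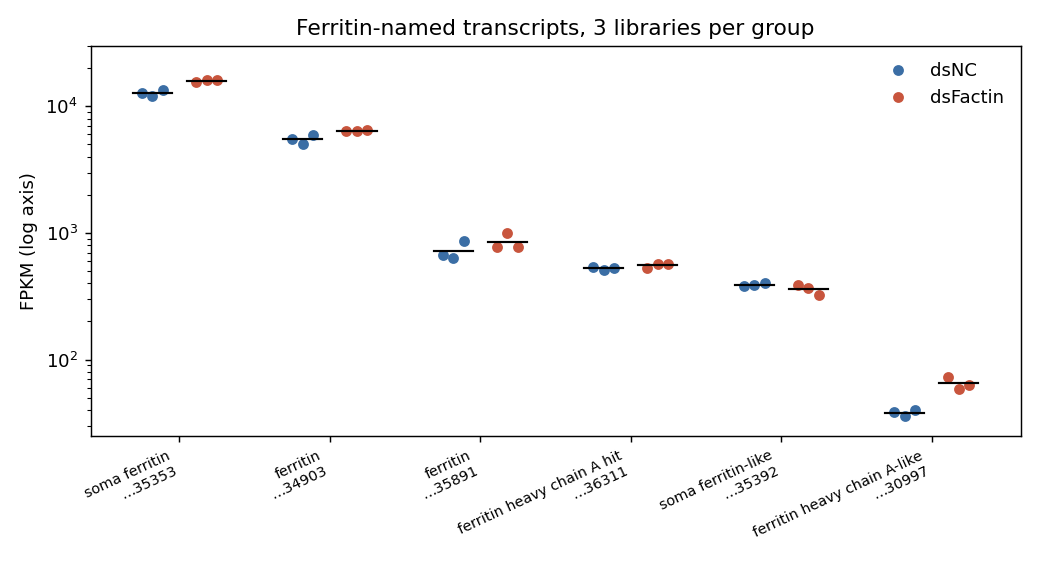
FPKM (log axis) of the 6 ferritin-named transcripts in each library, dsNC and dsFactin replicates as separate points, with short bars at the group means. The heavy chain A-like transcript shows the widest gap between groups, from a mean of 38.0 to 65.1 FPKM, and the soma ferritin is the most abundant in all 6 libraries.

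The other 7 genes with a ferritin domain had no ferritin name. The most abundant of them, without a named hit (Cluster-8110.36245), was at 1269, 1246 and 1661 FPKM in dsNC and at 1531, 3348 and 843 FPKM in dsFactin. Its dsFactin values enclosed the dsNC values, and its log2 difference went from 0.24 in all libraries to -0.28 without dsFactin replicate 2. A gene with a centromere-associated protein hit (Cluster-8110.34106) was at 311, 292 and 339 FPKM in dsNC and at 528, 529 and 284 FPKM in dsFactin, so dsFactin replicate 3 lay below all dsNC libraries.

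ZIP transporters, the zinc importers, numbered 19 by name and split almost evenly in sign, with 9 positive and 10 negative log2 differences. In 6 (31.6%) all dsFactin libraries were above all dsNC libraries and in 2 (10.53%) they were below, beside 5.98% and 21.5% of all tested genes. Of the 19, 9 averaged at least 5 FPKM, a level at which 15.6% of all tested genes lay above and 23.5% below. The median difference of the 19 was -0.05 and turned to 0.24 with median ratios and to 0.16 with quantile normalization. The 4 most abundant ZIP-named transcripts had positive differences.

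The leading ZIP was a ZIP1-like transcript (Cluster-8110.36418), related to the mammalian zinc importer of the cell surface. It was at 440, 396 and 455 FPKM in dsNC and at 657, 545 and 805 FPKM in dsFactin. The groups were separate, with means of 430 ± 30.8 and 669 ± 130 FPKM (SD, n = 3) and a ratio of 1.55. The log2 difference of 0.62 ± 0.17 (SE) had an adjusted p of 0.134 in limma and stayed between 0.0589 and 0.354 over the alternatives, so it passed in none of them.

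A ZIP3-like transcript (Cluster-8110.25143) was at 7.41, 7.94 and 8.72 FPKM in dsNC and at 11.95, 12.2 and 22.6 FPKM in dsFactin. Replicate 3 of dsFactin was well above the other dsFactin libraries, and all 3 were above dsNC, with a difference in log2 of 0.82 ± 0.26 (SE, adjusted p = 0.170, limma). A ZIP11-like transcript (Cluster-8110.33487) was at 26.7, 25.3 and 26.9 FPKM in dsNC and at 30.6, 29.2 and 36.2 FPKM in dsFactin. SLC39A7 (Cluster-8110.35014), which in mammals releases zinc from the endoplasmic reticulum and Golgi, was at 37.1, 36.6 and 36.5 FPKM in dsNC and at 42.8, 38.4 and 44.7 FPKM in dsFactin. Both were wholly above in dsFactin by small amounts, with log2 differences of 0.27 ± 0.13 and 0.18 ± 0.11 (SE, adjusted p = 0.313 and 0.420, limma).

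A further ZIP1-like transcript (Cluster-8110.33895) was also wholly above in dsFactin, by 0.25 ± 0.13 on the log2 scale (SE). The sixth, a ZIP10 transcript of 388 bases (Cluster-8110.14077), was at 1.59, 2.21 and 0.60 FPKM in dsNC and at 2.58, 4.26 and 9.29 FPKM in dsFactin, but rested on 1 to 13 recovered fragments a library. That depth is too low to read its size.

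On the other side, a ZIP6-like transcript (Cluster-8110.19651) was at 2.81, 2.73 and 1.90 FPKM in dsNC and at 1.18, 0.90 and 1.68 FPKM in dsFactin. Its other best hit names ZIP4, so the kind of ZIP is not settled by name. The groups of the ZIP6-like transcript did not overlap, and the log2 difference was -0.63 ± 0.24 (SE, adjusted p = 0.230, limma). The largest ZIP10-like transcript by length (Cluster-8110.39819), whose other best hit names ZIP12, was also wholly below in dsFactin, by -0.57 ± 0.26. Of 8 ZIP10-named transcripts 3 had positive and 5 negative differences, with a median of -0.33, beside 38067 negative differences among all 53182 tested genes. That median was -0.073 with median ratios and -0.074 with quantile normalization. The most abundant ZIP10-like transcript (Cluster-8110.35933) differed by -0.09 ± 0.14, turning to 0.21 after median-ratio rescaling.

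ZIP14, which in mammals also carries iron and can carry cadmium, was represented by 1 transcript (Cluster-8110.23391) at 4.48, 4.23 and 3.25 FPKM in dsNC and at 4.05, 5.31 and 3.37 FPKM in dsFactin. Its groups overlapped, and its log2 difference was 0.06 ± 0.21 (SE, adjusted p = 0.887, limma). Transcripts named for the Golgi and vesicle transporters ZIP13 (Cluster-8110.36681) and ZIP9 (Cluster-8110.38165) differed by -0.30 ± 0.21 and -0.05 ± 0.21, also with overlap, and the ZIP9 value turned to 0.24 after median-ratio rescaling.

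The sum of the 19 ZIP-named transcripts was 604, 549 and 611 FPKM in dsNC and came to 820, 726 and 995 FPKM in dsFactin, which is 0.52 apart on the log2 scale (exact two-sided permutation p = 0.1), or 0.84 with median ratios. It follows the ZIP1-like transcript, which gave most of it. The sum over the 32 genes classed by the ZIP domain had the opposite sign, -0.52 (exact p = 0.1), and was -0.19 with median ratios (exact p = 0.4). It is led in dsNC by a gene whose best hit is not a transporter. That gene is described with the other-named genes below.

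Zinc exporters of the cation efflux (ZnT) kind numbered 12 by name, with transmembrane protein TMEM163, a zinc efflux protein of vesicles and the cell surface in mammals, counted among them. Their log2 differences were positive in 8 and negative in 4, with a median of 0.18, and the median kept its sign after median-ratio rescaling and quantile normalization. In 4 (33.3%) all dsFactin libraries were above all dsNC libraries and in 1 (8.33%) they were below, beside 5.98% and 21.5% of all tested genes. Of the 12, 8 averaged at least 5 FPKM, a level at which 15.6% of all tested genes lay above and 23.5% below. None of the 12 passed the test.

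A TMEM163 transcript (Cluster-8110.31297) was at 41.7, 41.9 and 38.0 FPKM in dsNC and at 57.9, 59.7 and 97.2 FPKM in dsFactin. Replicate 3 of dsFactin stood far above the other libraries, and the mean went from 40.5 ± 2.17 to 71.6 ± 22.2 FPKM (SD, n = 3). The log2 difference was 0.77 ± 0.22 (SE, adjusted p = 0.140, limma). A TMEM163-like transcript (Cluster-8110.30298) differed by 0.48 ± 0.20 with overlap between groups.

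ZnT2 (Cluster-8110.38420), which in mammals loads zinc into vesicles, was at 39.3, 35.1 and 43.3 FPKM in dsNC and at 52.5, 51.6 and 64.7 FPKM in dsFactin. The groups did not overlap, with a log2 difference of 0.51 ± 0.14 (SE) and an adjusted p of 0.143 in limma, between 0.0843 and 0.380 over the alternatives. ZnT6 (Cluster-8110.27775), a partner subunit of the secretory pathway, was at 2.70, 2.34 and 2.54 FPKM in dsNC and at 4.25, 3.58 and 4.54 FPKM in dsFactin. It was thus wholly above in dsFactin at a much lower level, by 0.54 ± 0.18 on the log2 scale (SE, adjusted p = 0.183, limma), and ZnT7 (Cluster-8110.27032), a zinc transporter of the Golgi, was above by 0.26 ± 0.17.

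ZnT1, the zinc exporter of the cell surface, had 3 transcripts that did not go the same way. A ZnT1-like transcript (Cluster-8110.44391) was at 8.66, 6.35 and 5.98 FPKM in dsNC and at 3.86, 5.19 and 4.06 FPKM in dsFactin, all below dsNC, with a difference in log2 of -0.57 ± 0.20 (SE, adjusted p = 0.204, limma). The other two (Cluster-8110.38079 and Cluster-8110.39701) differed by -0.10 ± 0.22 and 0.18 ± 0.20 with overlap, and the first of these turned to 0.20 after median-ratio rescaling. The differences between these transcripts were not tested.

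Summed, the 12 ZnT-named transcripts were at 148, 138 and 148 FPKM in dsNC and at 177, 195 and 232 FPKM in dsFactin. The groups did not overlap, and the log2 difference of the sum was 0.47 (exact two-sided permutation p = 0.1). With rescaled values it was 0.80 (median ratios) or 0.54 (quantiles).

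**Figure D3:**
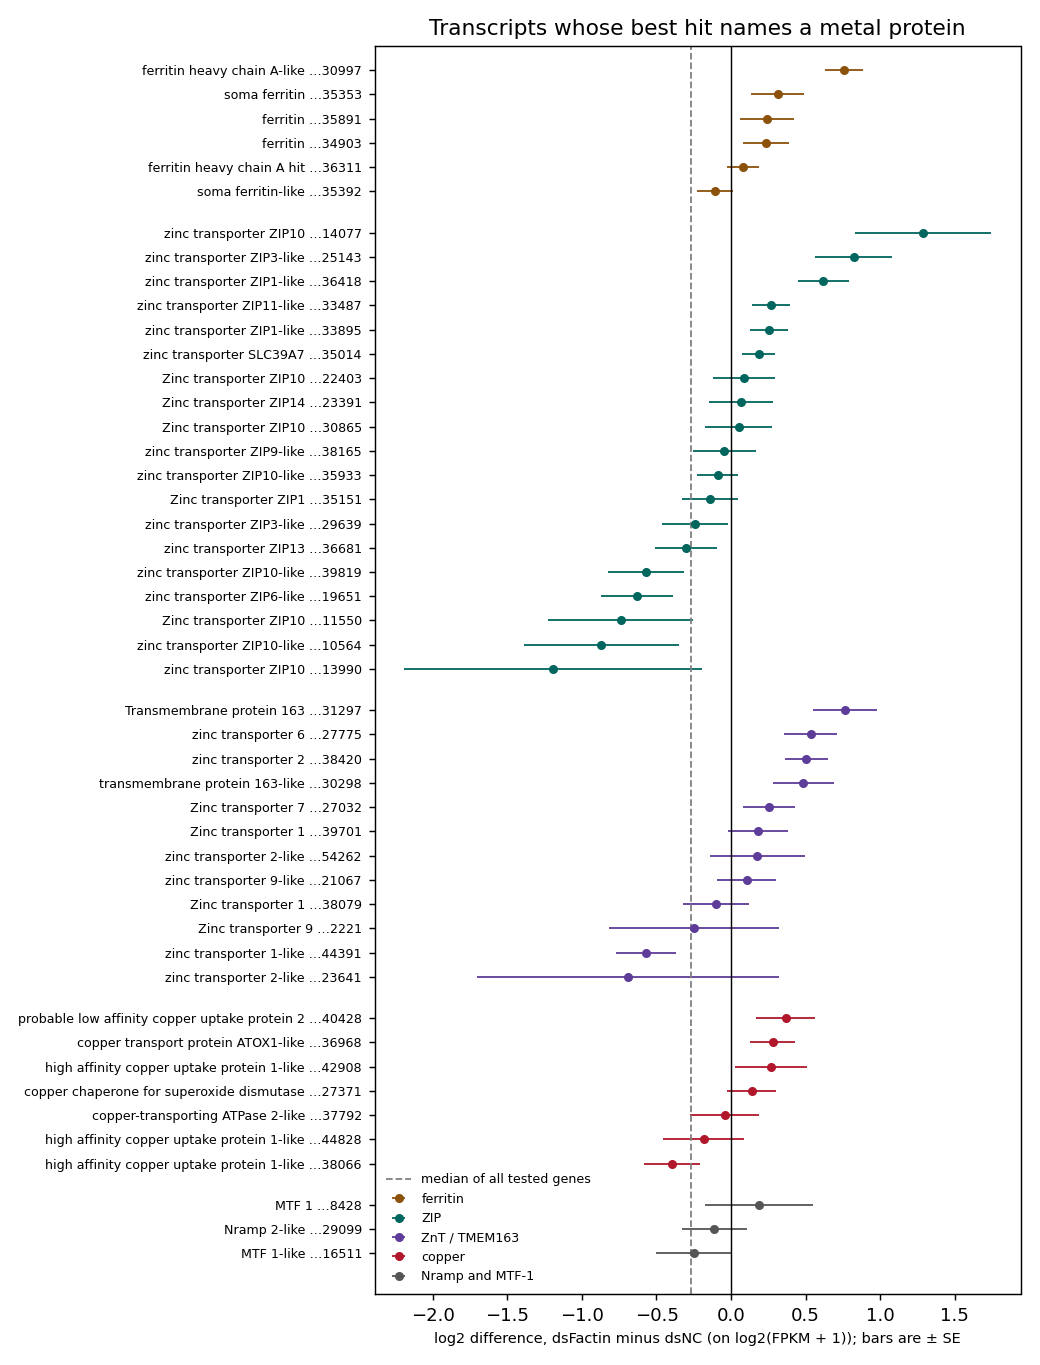
Log2 difference on the log2(FPKM + 1) scale, dsFactin minus dsNC, of all 47 metal-named transcripts, with bars of ± 1 SE from limma, coloured by role and sorted within a role, and a dashed line at the median of all tested genes (-0.27). None passed at an adjusted p under 0.05, and the ferritin heavy chain A-like transcript at 0.76 has a narrow bar (SE 0.13) beside differences of similar size.

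Nramp, the proton-coupled iron transporter, had 1 transcript (Cluster-8110.29099) in the set. It was at 29.0, 26.4 and 23.2 FPKM in dsNC and at 32.5, 23.0 and 18.6 FPKM in dsFactin. Its dsFactin libraries enclosed the dsNC range, and the log2 difference of -0.11 ± 0.22 (SE, adjusted p = 0.801, limma) turned to 0.20 after median-ratio rescaling.

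Copper-handling transcripts numbered 7 by name, with 4 positive and 3 negative differences. In none were the groups separate, beside 5.98% above and 21.5% below of all tested genes. Of the 7, 5 averaged at least 5 FPKM, a level at which 15.6% of all tested genes lay above and 23.5% below. With so few genes, none separate is not read as a trait of copper genes. The ATOX1-like copper chaperone (Cluster-8110.36968), which hands copper to the copper ATPases, was at 46.4, 37.3 and 35.1 FPKM in dsNC and at 47.3, 43.2 and 53.7 FPKM in dsFactin. Its log2 difference was 0.28 ± 0.15 (SE, adjusted p = 0.381, limma). The copper ATPase itself (Cluster-8110.37792, ATPase 2-like) was at 7.52, 6.86 and 5.76 FPKM in dsNC and at 8.91, 4.96 and 6.03 FPKM in dsFactin, and the copper chaperone for superoxide dismutase (Cluster-8110.27371) averaged 6.79 ± 0.808 FPKM across dsNC and 7.57 ± 0.827 FPKM across dsFactin (SD, n = 3). Both overlapped between groups.

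For copper entry, a high affinity copper uptake protein 1-like transcript (Cluster-8110.38066), of the Ctr family, was at 8.28, 7.89 and 6.10 FPKM in dsNC and at 6.47, 4.88 and 4.85 FPKM in dsFactin. A probable low affinity copper uptake transcript (Cluster-8110.40428) had the opposite sign. Their log2 differences were -0.40 ± 0.19 and 0.37 ± 0.20 (SE, adjusted p = 0.317 and 0.378, limma), both with overlap. The summed copper-named transcripts differed by 0.18 (exact two-sided permutation p = 0.2), and by 0.51 with median ratios (exact p = 0.1).

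The metal regulatory transcription factor, MTF, which switches on metallothionein and zinc exporter genes in flies and mammals, had 2 transcripts near the lower limit of the set. One (Cluster-8110.16511) was at 1.14, 2.18 and 1.30 FPKM in dsNC and at 1.36, 0.93 and 1.04 FPKM in dsFactin. The other (Cluster-8110.8428) was at 0.30, 1.29 and 1.57 FPKM in dsNC and at 0.63, 1.75 and 1.51 FPKM in dsFactin. Their groups overlapped, and their log2 differences of -0.25 and 0.19 each changed sign in at least 1 alternative.

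Some zinc transporter transcripts varied more within dsFactin than between the groups. A ZIP10 transcript (Cluster-8110.13990) was at 3.82, 2.55 and 7.33 FPKM in dsNC and at 10.86 FPKM in dsFactin replicate 2, and was listed at 0 in dsFactin replicates 1 and 3. A ZnT2-like transcript (Cluster-8110.23641) was at 4.11, 3.55 and 10.57 FPKM in dsNC and at 1.26, 19.46 and 0.39 FPKM in dsFactin. In both, dsFactin replicate 2 was the highest of the 6 libraries and dsNC replicate 3 came next.

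The same split within dsFactin was seen for ZnT9 (Cluster-8110.2221) and for ZIP10-named Cluster-8110.11550 and Cluster-8110.10564, all under 4 FPKM. Without dsFactin replicate 2, the log2 difference of the first ZIP10 transcript (Cluster-8110.13990) went from -1.20 to -2.39 (adjusted p = 0.0504, limma), and that of the ZnT2-like transcript (Cluster-8110.23641) from -0.69 to -1.86 (adjusted p = 0.0960, limma). In all, 12 of the 93 genes (12.9%) were more than 1 log2 unit higher in dsFactin replicate 2 than in both other dsFactin libraries, beside 11.9% of all tested genes, a share near that of the whole table. Likewise 4 of the 93 (4.3%) were listed at 0 in dsFactin replicates 1 and 3 but not 2, beside 7.51% of all.

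**Figure D4:**
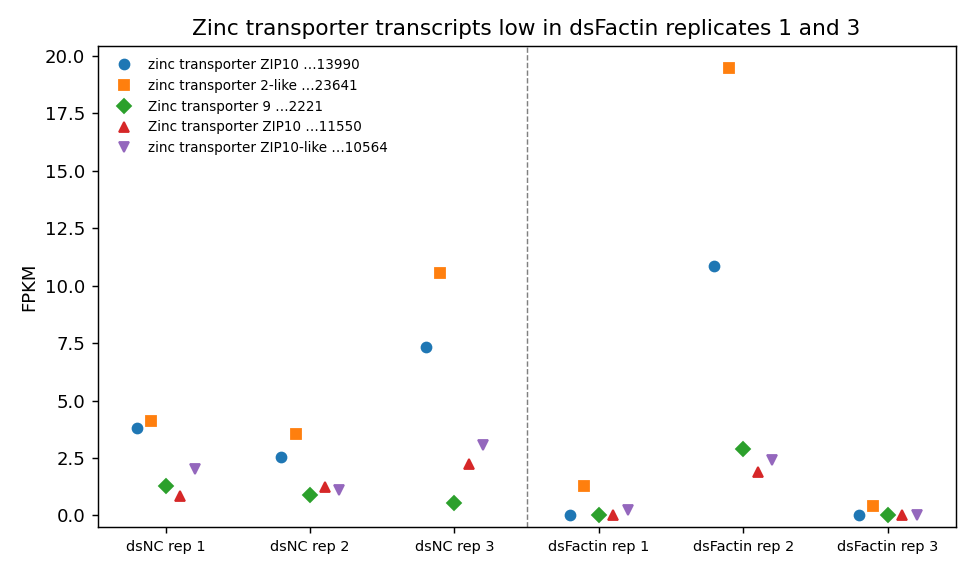
FPKM of 5 zinc transporter transcripts in each of the 6 libraries, 1 symbol per transcript. They were picked as the metal-named genes more than 1 log2 unit higher in dsFactin replicate 2 than in both other dsFactin libraries. In dsFactin replicates 1 and 3 they stand between 0 and 1.26 FPKM, and in dsFactin replicate 2 between 1.87 and 19.46 FPKM.

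The largest differences in the set belonged to genes that carry a transporter domain but are not named as metal proteins. A gene with a ZIP domain whose best hit is a probable H/ACA ribonucleoprotein subunit (Cluster-8110.34743) was at 903, 590 and 266 FPKM in dsNC and at 9.21, 74.5 and 2.54 FPKM in dsFactin. All dsFactin libraries were far below dsNC, with a log2 difference of -5.22 ± 1.11 (SE) and an adjusted p of 0.0893 in limma. It passed with array weights, with limma-voom (adjusted p = 0.0365) and without dsFactin replicate 2 (adjusted p = 0.0229), among 16 alternatives that spanned 0.0229 to 0.263.

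A gene with no named hit (Cluster-8110.25817) was at 143, 147 and 200 FPKM in dsNC and at 12.6, 69.4 and 48.5 FPKM in dsFactin. Its groups were also separate, with a difference in log2 of -2.17 ± 0.59 (SE, adjusted p = 0.133, limma). A gene with a sodium/potassium ATPase alpha-B-like hit (Cluster-8110.36686), an ion pump that does not carry these metals, was at 41.9, 33.5 and 27.0 FPKM in dsNC and at 21.7, 18.2 and 17.6 FPKM in dsFactin. Its log2 difference was -0.78 ± 0.19 (SE, adjusted p = 0.108, limma). Values near 0 marked a proteasome alpha 4-like gene (Cluster-8110.32737), at -0.08 (0.24 after median-ratio rescaling), and a Golgi complex subunit gene (Cluster-8110.28972), at 0.07.

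The limit on level that defines the set is a threshold, and few genes sat close to it. Of the 93, 75 were at or above 0.5 FPKM in all 6 libraries and 6 in exactly 3. Only 1 gene reached it in all dsNC and no dsFactin library, and 1 in all dsFactin and no dsNC library. Another 7 matching genes without a Drosophila hit reached it in exactly 2 libraries and stayed out, among them a copper ATPase 2-like transcript (Cluster-14848.0) at 0.37, 0 and 1.84 FPKM in dsNC and at 0.28, 1.37 and 0 FPKM in dsFactin.

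Across the 6 libraries, the transcripts most like the soma ferritin (Cluster-8110.35353) were looked up among the 93 genes. The second ferritin (Cluster-8110.34903) had a Pearson r of 0.96 on log2(FPKM + 1), and ZnT2 (Cluster-8110.38420), the ferritin heavy chain A-like transcript (Cluster-8110.30997) and ZnT6 (Cluster-8110.27775) followed with 0.95, 0.93 and 0.92. The least alike, at -0.97, was a gene with an nGAP-like hit (Cluster-8110.37103). These values describe 6 libraries that share the group split, so any pair of transcripts that differ between groups scores high, and no p is given.

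Transferrins, among them iron carriers of body fluids, were present by name though not by domain. The names did not settle the kind: Cluster-8110.29953 and Cluster-8110.17195 had a hit named melanotransferrin. The orthology description of Cluster-8110.34844, Cluster-8110.35332, Cluster-8110.29411 and Cluster-8110.29953 was melanoma-associated antigen p97. The transferrin-named transcripts were looked up outside the rule and chosen with their values in view, so the comparison with ferritin is a description. Of 6 tested transcripts with a transferrin-named hit and no Drosophila hit, all had a negative difference and 4 had every dsFactin library below every dsNC library, beside 21.5% of all tested genes. None passed in limma.

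The most abundant (Cluster-8110.34844), whose other best hit is a venom protein, was at 1060, 1060 and 1149 FPKM in dsNC and at 543, 682 and 597 FPKM in dsFactin. The libraries of each group lay close together and far from the other group, with means of 1089 ± 51.3 and 607 ± 70.2 FPKM (SD, n = 3). The log2 difference was -0.85 ± 0.13 (SE, adjusted p = 0.0613, limma), with alternatives from 0.00678 by limma-voom to 0.294 with median ratios. A partial transferrin of 507 bases (Cluster-8110.35332) was at 659, 691 and 707 FPKM in dsNC and at 327, 421 and 374 FPKM in dsFactin. It differed by -0.88 ± 0.13 (SE, adjusted p = 0.0575, limma), a similar size, and an ovotransferrin (Cluster-8110.40078) by -0.63 ± 0.14 (adjusted p = 0.0908, limma). Rescaled by median ratios, these 3 differences were smaller, at -0.52, -0.55 and -0.33.

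The remaining transferrin-named transcripts followed dsFactin replicate 2. A fragment of 446 bases (Cluster-8110.29411) was at 121, 124 and 217 FPKM in dsNC and at 6.42, 119 and 3.91 FPKM in dsFactin. Another (Cluster-8110.29953) was at 151, 157 and 299 FPKM in dsNC and at 9.77, 195 and 3.76 FPKM in dsFactin. In both, dsFactin replicates 1 and 3 were far below the other 4 libraries, and without dsFactin replicate 2 the adjusted p in limma went from 0.216 to 0.00987 and from 0.260 to 0.0210. Over all 6 transcripts, 2 passed with limma-voom and 4 without dsFactin replicate 2, beside 2.26% and 2.44% of all tested genes. Among genes averaging 5 FPKM or more, fitted alone, 3 of 5 passed, beside 6.06% of all.

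**Figure D5:**
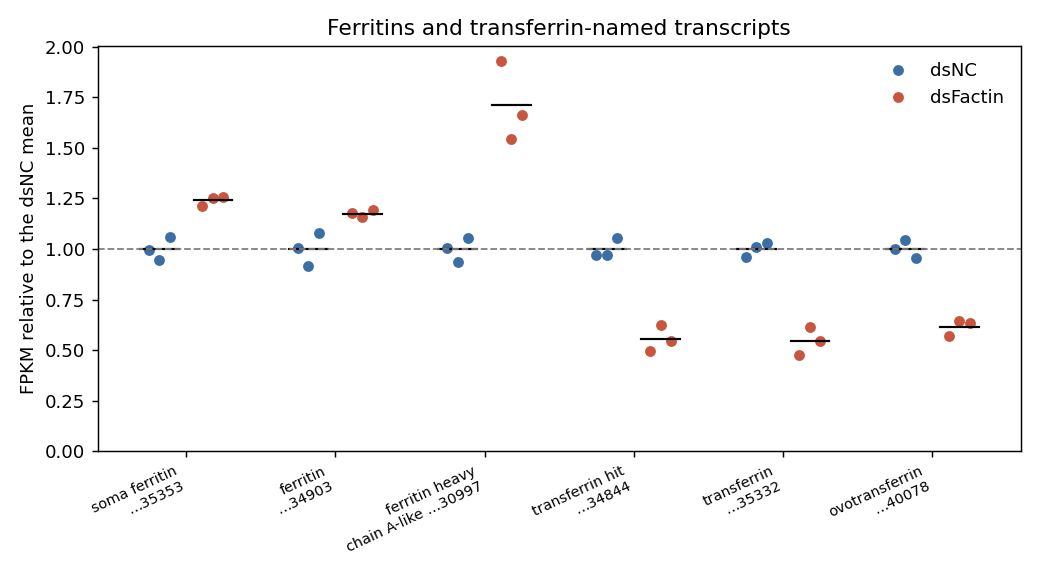
FPKM of 3 of the 6 ferritin-named and 3 of the 6 transferrin-named transcripts in each library, those whose groups did not overlap and, for transferrin, whose dsFactin libraries lay close together, divided by that transcript's dsNC mean, with short bars at group means and a dashed line at 1. The ferritin points of dsFactin lie above the line, up to a mean ratio of 1.71 for the heavy chain A-like transcript, and the transferrin-named points of dsFactin lie below it. The choice of transcripts set this separation in advance. The ferritins not drawn overlapped between groups, and Cluster-8110.35392 among them had a negative log2 difference (-0.11).

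Further genes of iron handling were drawn by name, 10 in all, and 2 of these passed, both lower in dsFactin, as did 0.419% of all tested genes. A hephaestin-like transcript (Cluster-8110.34927), related to the copper-containing iron oxidase that helps iron leave mammalian gut cells, fell from 12.6, 12.4 and 9.48 FPKM in dsNC to 2.06, 3.12 and 1.39 FPKM in dsFactin. A poly(rC)-binding protein 3-like transcript (Cluster-8110.35823), of an RNA-binding family whose human members also deliver iron to ferritin, fell from 51.6, 61.5 and 52.3 FPKM to 21.6, 27.0 and 18.8 FPKM. Their log2 differences were -1.997 ± 0.25 and -1.27 ± 0.17 (SE, adjusted p = 0.0412 and 0.0457, limma). Neither passed without any 1 of the dsNC libraries, without dsFactin replicate 1 or without replicate 3, and both passed without dsFactin replicate 2. Over all alternatives the adjusted p ranged from 0.00704 to 0.188 for the first and from 0.00771 to 0.202 for the second, the lowest of each by limma-voom.

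The iron list as a whole had a median of -0.11 (0.17 with median ratios). In it 3 genes lay wholly above (30.0%) and 3 wholly below (30.0%). Of all tested genes 5.98% and 21.5% did so, and of genes averaging 5 FPKM or more 15.6% and 23.5%. In the copper list of 20 genes, 1 of them also in the set of 93, none passed. At an unadjusted p under 0.05, 2 were higher and 1 lower, beside 4.53% and 14.8% of all tested genes. Of the 20, 17 averaged at least 5 FPKM, a level at which 1538 of 12851 tested genes were higher and 2410 lower. The list had a median of 0.07. Its lowest adjusted p belonged to an extracellular copper-zinc superoxide dismutase-like transcript (Cluster-8110.36575), an antioxidant enzyme, at 722, 737 and 790 FPKM in dsNC and at 1442, 1108 and 1166 FPKM in dsFactin. The dsFactin libraries were all above, by 0.72 ± 0.15 on the log2 scale (SE, adjusted p = 0.0861, limma). A COMM domain-containing protein 7-like transcript (Cluster-8110.34005) was also wholly above, by 0.41 ± 0.10 (adjusted p = 0.120, limma).

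Thiol genes, which make and export glutathione and related cadmium-binding peptides, numbered 39, and none passed. At an unadjusted p under 0.05, 5 were higher and 2 lower, beside 4.53% and 14.8% of all tested genes. Of the 39, 25 averaged at least 5 FPKM, a level at which 1538 of 12851 tested genes were higher and 2410 lower. Glutathione synthetase-like (Cluster-8110.41054) was at 5.10, 5.23 and 5.34 FPKM in dsNC and at 9.78, 10.7 and 15.5 FPKM in dsFactin, wholly above by 1.04 ± 0.20 (SE, adjusted p = 0.0784, limma). Multidrug resistance-associated protein 1 (Cluster-8110.34037), an exporter of glutathione conjugates, was at 7.31, 6.95 and 6.54 FPKM in dsNC and at 13.5, 10.8 and 13.6 FPKM in dsFactin, wholly above by 0.77 ± 0.15 (adjusted p = 0.0808, limma). The list median was -0.04, or 0.25 with median ratios.

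Vesicle proton pumps, which drive metal carriers of acid compartments, had 23 genes, and none passed. At an unadjusted p under 0.05, 5 were higher and 0 lower, beside 4.53% and 14.8% of all tested genes. Of the 23, 18 averaged at least 5 FPKM, a level at which 1538 of 12851 tested genes were higher and 2410 lower. Wholly above lay 9 of the 23 (39.1%) and wholly below 1 (4.35%), and their median was 0.04. The shares were 5.98% and 21.5% of all tested genes, or 15.6% and 23.5% of genes averaging 5 FPKM or more. The 16 kDa proteolipid (Cluster-8110.35922), the subunit of the membrane ring, was at 308, 297 and 311 FPKM in dsNC and at 419, 372 and 447 FPKM in dsFactin. Among 41 cation channel genes, a route for cadmium entry in other animals, none passed, and the median was -0.25, near that of all genes. At an unadjusted p under 0.05, 1 was higher and 4 lower, beside 4.53% and 14.8% of all tested genes. Wholly above lay 1 (2.44%) and wholly below 7 (17.1%), beside 5.98% and 21.5%. Among channel genes averaging at least 1 FPKM, 2 calcium channel subunit hits had the lowest adjusted p, both wholly below. Cluster-8110.39043 was at 3.62, 3.27 and 2.88 FPKM in dsNC and at 1.35, 1.47 and 0.99 FPKM in dsFactin. Its log2 difference was -0.91 ± 0.20 (SE, adjusted p = 0.0972, limma), and that of Cluster-8110.29189 was -0.93 ± 0.22 (adjusted p = 0.106, limma). By limma-voom, 1 gene passed in the copper list, 2 in the thiol list, 1 in the proton pump list and 2 in the channel list, beside 2.26% of all tested genes.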

How the data were processed

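The authors deposited FPKM values (fragments per kilobase of transcript per 1000000 fragments), rounded to 2 decimals, with lengths and best protein hits for each assembled gene. No assembler, aligner or counter is given in the sources used here. Per the submitters' processing notes the build is mm10, whereas the table lists numbered clusters without coordinates, so no positions are given. Groups follow the sample titles. Genes reaching 0.5 FPKM in 3 or more libraries were tested as log2(FPKM + 1) with limma 3.58.1 (R 4.3.3), two-sided, with a mean-variance trend and Benjamini-Hochberg adjustment over 53182 genes. Fold changes on this scale understate the change of low genes. In each library, 99.5 to 99.7% of low values lay within 0.1 of a whole fragment, which gave the depth and the fragments for limma-voom. The fit was tested on simulated data with independent noise for each gene, which held no shift shared by the genes of a library. Members and lists, including the organ markers, were chosen with earlier results of these data known. Genes were picked by role class (3 highest means, 2 largest differences) and by list (2 lowest adjusted p). The differences and the lists used genes averaging at least 1 FPKM. The role-class picks Cluster-8110.33619, Cluster-8110.23330 and Cluster-8110.40246 are not described. Other members were named after their values were seen.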

Additional observations from a re-analysis of the deposited data

How the results depend on the processing

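The number of tested genes that passed was 264 and became 114 with a pseudocount of 0.01, 117 without a filter, 781 among genes averaging 5 FPKM or more, 115 after median-ratio rescaling, 174 without a trend, 702 with array weights, 1201 with limma-voom and 33 to 1297 when 1 library was left out, the highest without dsFactin replicate 2. Of the 93 genes, 0 passed, and 1 among genes averaging 5 FPKM or more, 2 with array weights, 3 with limma-voom and 0 to 3 with 1 library left out (3 without dsFactin replicate 2). Their median of -0.09 became 0.20 after median-ratio rescaling, 0.10 after quantile normalization and -0.16 to -0.023 with 1 library left out. With the replicate number as a block, 17 genes passed, none of them among the 93, and 0 of the iron list. Same-numbered libraries had correlations of 0.10, -0.11 and -0.15 in their deviations from the group means, and not every library was most like its own number, so the numbers pair nothing here. The 2 iron calls became 0 with a pseudocount of 0.01, without a filter, after median-ratio rescaling and without a trend, and 0 to 2 with 1 library left out. The copper list went from 0 to 1 among genes averaging 5 FPKM or more and with limma-voom, the thiol list from 0 to 2 in both, the channel list to 2 and the proton pump list to 1 with limma-voom.

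Signs turned for the Nramp transcript (0.20 after median-ratio rescaling, -0.32 to 0.066 with 1 library left out), the Nramp sum (0.21, and -0.34 to 0.068), the Ctr-domain sum (0.21 after median-ratio rescaling), the proteasome alpha 4-like gene (0.24) and a HERPUD2-like gene (Cluster-8110.36791, 0.16). They also turned for MTF Cluster-8110.16511 (0.089 after quantile normalization), ZnT9 Cluster-8110.2221 (0.036 after quantile normalization, -0.90 to 0.081 with 1 library left out), and, with 1 library left out, MTF Cluster-8110.8428 (-0.11 to 0.42), the Golgi complex gene (-0.038 to 0.18) and the unnamed ferritin-domain gene Cluster-8110.36245 (-0.28 to 0.71). The cause was not tested. Low depth limits the short ZIP10 and ZnT9 transcripts, some with 0 to 22 recovered fragments.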

Other observations

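Metallothionein names occurred only on transcripts whose best hit was a Drosophila protein, and these were left out of the set. Summed, the 5 such transcripts were at 13.9, 16.8 and 1237 FPKM in dsNC replicates 1 to 3 and at 0, 0 and 1.25 FPKM in dsFactin replicates 1 to 3. The 2135 genes with a Drosophila best hit held 0.0672, 0.216 and 1.19% of all dsNC FPKM, by replicate, against 0.0219, 0.0374 and 0.0343% for dsFactin, so dsNC replicate 3 was highest in both. The limma fit without that library called 77 genes over the whole table and 0 of the 93 described above, beside 264 and 0 with it.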
